A study of Gallus gallus with 9 samples.

Results

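The cells described here are the neural cells of the chick head at midbrain level, compared between embryos with 7 pairs of somites (7ss) and embryos with 1 pair (1ss). A barcode, which stands for a droplet called as a cell, was taken as neural when at least 500 genes were detected in it, when it held at least 1 UMI (unique molecular identifier, a count of 1 captured RNA molecule) of SOX21, SOX1 or OTX2, and when it held 0 UMIs of DLX5, TFAP2B, FOXD3, TWIST1, SOX17 and KDR. SOX21 and SOX1 are transcription factors of the early nervous system and OTX2 is the head-patterning factor of forebrain and midbrain, and the members were thus chosen by the measured UMIs of these 9 genes, whose values are a description here. The 6 barred genes mark non-neural ectoderm, neural crest, head mesoderm, endoderm and endothelium. The rule took 13191 of the 45963 barcodes of the 4 libraries of 1ss and 7ss, out of 107749 barcodes in all 9 libraries. It took 1986 and 1735 barcodes at 1ss and 4317 and 5153 at 7ss, and their UMIs were summed per library, because cells of a library are not replicates.

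The study followed the ectoderm from gastrulation to neural crest migration by droplet-based single-cell RNA sequencing of wild-type chick embryos (Gallus gallus) that received no treatment. Tissue of all germ layers was cut at the midbrain axial level, so each library pooled a slice of several embryos. The groups are 2 libraries each of Hamburger-Hamilton stage HH5, of 1ss, of 4ss and of 7ss, and 1 library of HH11. The labels do not say that libraries with a number came from a shared day or batch. P-values rest on the spread between 2 pools of embryos per stage, which the fit partly shares across genes. A slice cut by hand can sit more to the front or back of the embryo at a stage, so a change in the cells and a change in the level that was cut cannot be told apart here.

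The neural plate is an epithelium that folds into the neural tube between these stages. Its front to back pattern is set by transcription factors such as SIX3, HESX1 and RAX in the future forebrain and EN1, EN2 and PAX2 around the future midbrain and hindbrain, where WNT1 and FGF8 act as signals of the boundary between them. Across the tube, Hedgehog from the floor and Wnt and BMP from the roof set the ventral to dorsal pattern, and Notch keeps progenitors from becoming neurons.

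The neural barcodes carried the markers of the rule in like proportions at both stages. SOX21 was present in 76.3 and 77.6% of neural barcodes at 1ss and in 69.4 and 82.5% at 7ss, SOX1 in 21.2 and 24.2% and in 32.1 and 22.0%, and OTX2 in 50.1 and 46.9% and in 47.3 and 44.96%. Only 1 of the 3 genes was present in 60.1 and 60.4% of neural barcodes at 1ss and in 61.8 and 60.4% at 7ss, and 821, 718, 2022 and 2016 barcodes met the rule with a single marker UMI. Just outside the rule, 81, 69, 323 and 352 barcodes met its other terms with at least 400 but under 500 genes, and 702, 518, 864 and 1166 held a neural marker UMI together with a UMI of a barred gene. Of barcodes with at least 500 genes, 37.7% (95% exact binomial interval 36.3 to 39.0%) and 33.3% (32.0 to 34.6%) were neural at 1ss and 34.8% (34.0 to 35.6%) and 40.6% (39.7 to 41.4%) at 7ss. The stages overlapped, and the means differed by 2.22 percentage points with SDs of 3.11 (1ss) and 4.08 (7ss). Intervals cover counting error only.

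As a check of the name, 9 further neural markers that the rule did not use were summed. Their summed level was 1121 and 1057 CPM (UMIs of a gene per 1000000 UMIs of the sum) at 1ss and 1321 and 1174 CPM at 7ss. It was 318 to 530 CPM in barcodes of the same libraries that held TWIST1, a head mesoderm factor, and no neural marker. In empty droplets, raw barcodes with at most 100 UMIs, it was 617 and 456 CPM at 1ss and 623 and 598 CPM at 7ss. The members did not move together. In the test below 5 of the 9 were called higher at 7ss and 3 lower, against 19.0 and 19.7% of all genes. Head mesoderm markers summed to 34.6 and 39.2 CPM at 1ss and 45.9 and 44.3 CPM at 7ss in neural barcodes, and to over 1000 CPM in each of the 4 sums of TWIST1 barcodes. Blood markers summed to at most 7.35 CPM, with 2 to 4 of 7 at 0. Several other marker sums also did not overlap between the stages. The 11 non-neural ectoderm markers outside the rule summed to 1321 and 1098 CPM at 1ss and 414 and 424 CPM at 7ss. Of this EPCAM alone gave 911 and 715 CPM and 191 and 150 CPM, and none of the 11 was at 0. In TWIST1 barcodes the 11 summed to 1081 and 849 CPM at 1ss and 556 and 489 CPM at 7ss. The 10 neural crest markers outside the rule summed to 130 and 154 CPM and to 452 and 517 CPM. Without MSX1 they summed to 99.0 and 99.2 CPM and to 123 and 143 CPM. Of the 10, 3 were called higher at 7ss and 0 lower, against 19.0 and 19.7% of all genes, and 7 were not called. SOX9 was at 9.33 and 10.7 CPM at 1ss and 17.3 and 22.2 CPM at 7ss. SOX5 was at 15.7 and 14.6 CPM and then at 10.6 and 12.7 CPM. SOX10, a defining crest factor, lay between 0.282 and 0.657 CPM in all 4 libraries. Notochord and prechordal plate markers summed to 128 and 186 CPM at 1ss and 72.6 and 82.6 CPM at 7ss, cardiac markers to 40.8 and 38.5 CPM and to 28.0 and 21.3 CPM, endothelial markers to 12.8 and 9.29 CPM and to 19.7 and 21.2 CPM, and blood markers to 3.61 and 4.505 CPM and to 7.23 and 7.35 CPM. Endoderm markers (183 to 224 CPM) and placode markers (43.2 to 64.7 CPM) overlapped between the stages. The part of these markers in the results below was not tested.

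The sums held 15227319 and 10655275 UMIs at 1ss and 27934423 and 33321562 UMIs at 7ss. A neural barcode held fewer UMIs at 7ss, with medians of 5256.5 and 4711 at 1ss and 3577 and 3679 at 7ss, and the median mitochondrial share lay between 3.60 and 4.61%. Neural barcodes of any pair of the 9 libraries shared between 0 and 10 barcode sequences. As a check for a library deposited again under another name, replicate sums were compared, and they differed by more than counting noise (chi-square per gene 15.9 at 1ss and 33.6 at 7ss).

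Many genes differed between the neural sums of 1ss and 7ss. Of 11382 genes tested by edgeR, 4406 (38.7%) passed an adjusted p of 0.05, 2160 (19.0%) higher and 2246 (19.7%) lower at 7ss, and the median log2 change over all genes was 0.00. Past 2-fold, 854 genes (7.50%) were called higher and 1026 (9.01%) lower. In 71.6% of all tested genes the libraries of the stages did not overlap. With 2 libraries against 2 this often happens without any change, so the share is not a count of changed genes. The genes that rose most were led by PAX2, WNT4, EN1 and NKX6-2, and those that fell most by GRP, SIX3, RAX and HESX1. The count changed with the libraries in the fit. It was 2721 without 1ss replicate 1 and 2552 with the HH5 sums added, and it fell to 348 with all 8 sums of HH5, 1ss, 4ss and 7ss, whose 4ss libraries differ as described below.

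**Figure D1:**
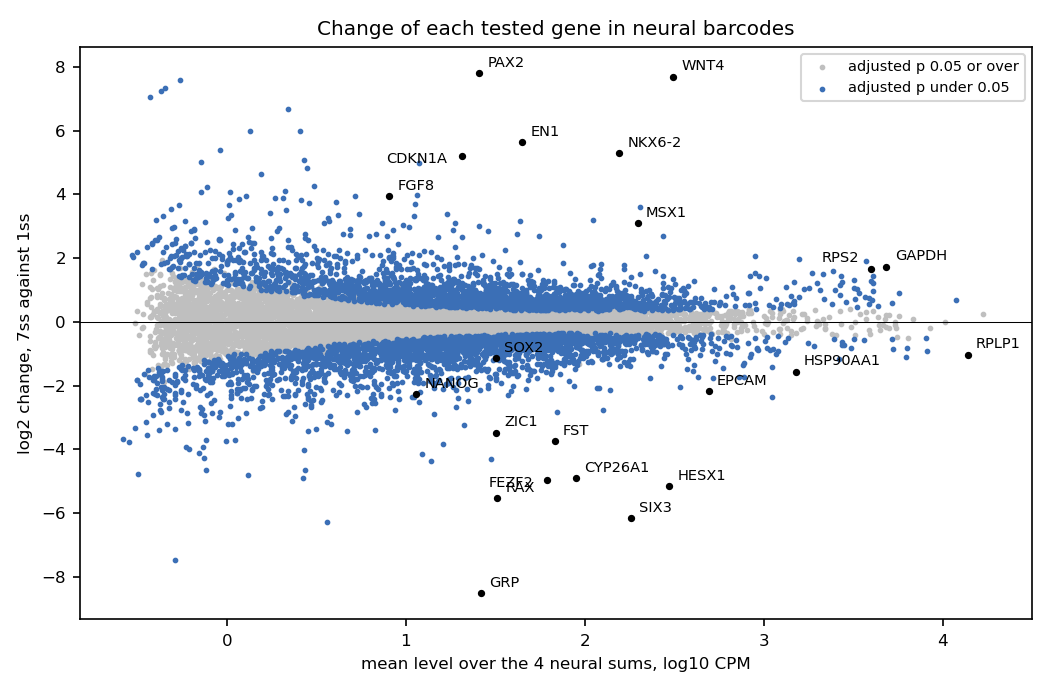
Log2 change at 7ss against 1ss of each tested gene in neural barcodes, without the genes of the rule, against the log10 of its mean CPM over the 4 sums; blue points passed an adjusted p of 0.05 and black points are named. PAX2 (7.81) and WNT4 (7.70) lie at the top, GRP (-8.51) and SIX3 (-6.16) at the bottom.

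Most tested genes of the forebrain list fell. Of 17 tested members of a list of forebrain genes, 12 fell, 4 rose and 1 was not called (median log2 change -1.52), against 19.7% lower among all genes. SIX3, a homeobox factor of the front-most neural plate, was at 436 and 279 CPM at 1ss and at 5.66 and 3.84 CPM at 7ss. This was a log2 change of -6.16 ± 0.27 (value ± SE here and below, adjusted p = 3.8e-07). HESX1, a repressor needed for forebrain and pituitary, was at 706 and 449 CPM and then at 16.002 and 14.8 CPM (-5.16 ± 0.22, adjusted p = 3.8e-07). Both genes were lower in each 7ss library than in either 1ss library by well over the spread between replicates.

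RAX, the eye field factor, went from 66.2 and 60.4 CPM to 1.54 and 1.08 CPM (-5.54 ± 0.21, adjusted p = 2.9e-07). FEZF2, a zinc finger repressor of the forebrain, went from 152 and 85.8 CPM to 4.51 and 2.70 CPM (-4.98 ± 0.31, adjusted p = 4.1e-06). Its relative FEZF1 had 21 and 7 UMIs at 1ss and 0 at 7ss, a level at least 20.8-fold lower when 3 counts over both 7ss libraries are taken as the floor. LHX5, a LIM homeobox factor of the anterior plate, fell from 5.91 and 5.54 CPM to 0.644 and 0.420 CPM (-3.36 ± 0.34). The fall of OTX1, a partner of OTX2 in forebrain and midbrain, was smaller, from 69.2 and 78.7 CPM to 24.6 and 24.9 CPM (-1.52 ± 0.14).

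Members of the forebrain list that rose included factors that are also used outside it. PAX6, a factor of forebrain, eye and ventral neural tube, was at 10.4 and 12.1 CPM at 1ss and at 68.8 and 75.1 CPM at 7ss (2.75 ± 0.16, adjusted p = 2.5e-06). SP8, a zinc finger factor of the anterior neural ridge and of the midbrain-hindbrain boundary, was at 3.87 and 4.22 CPM and then at 31.1 and 35.7 CPM (3.11 ± 0.19, adjusted p = 3.7e-06).

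Most tested genes of the midbrain and hindbrain list rose. Of 13 tested members, 9 rose, 3 fell and 1 was not called (median 1.496), against 19.0% higher among all genes. PAX2, a paired-box factor of the midbrain-hindbrain boundary, had 4 and 2 UMIs in the whole 1ss sums (0.263 and 0.188 CPM) and 792 and 2475 UMIs at 7ss (28.4 and 74.3 CPM). Its log2 change was 7.81 ± 0.59 (adjusted p = 1.5e-05), the second in size after GRP among the genes named by the rule. EN1, an engrailed homeobox factor of the same region, was at 0.854 and 3.00 CPM at 1ss and at 48.8 and 125 CPM at 7ss (5.65 ± 0.52, adjusted p = 4.6e-05). Within 7ss both genes were over 2-fold higher in replicate 2 than in replicate 1, and the stages did not overlap.

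The other engrailed gene and the signals of the boundary were far lower in CPM at 7ss but moved the same way. EN2 went from 0.591 and 0.188 CPM to 3.29 and 7.38 CPM (3.72 ± 0.53, adjusted p = 0.00054). WNT1 went from 1.51 and 1.69 CPM to 8.95 and 17.2 CPM (3.09 ± 0.34, adjusted p = 0.00012), and FGF8 from 0.788 and 1.31 CPM to 8.77 and 21.4 CPM (3.94 ± 0.46, adjusted p = 0.00016). LMX1B, a LIM homeobox factor that maintains boundary signals, rose from 15.5 and 22.3 CPM to 47.4 and 45.9 CPM (1.37 ± 0.19). GBX2, the factor of the anterior hindbrain, was at 5.58 and 10.2 CPM at 1ss and at 12.7 and 10.3 CPM at 7ss and was not called (0.62 ± 0.28, adjusted p = 0.10). The members that fell were FGF18, a ligand of the isthmus, MEIS2, a homeobox cofactor, and SPRY2, an inhibitor of FGF signalling.

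**Figure D2:**
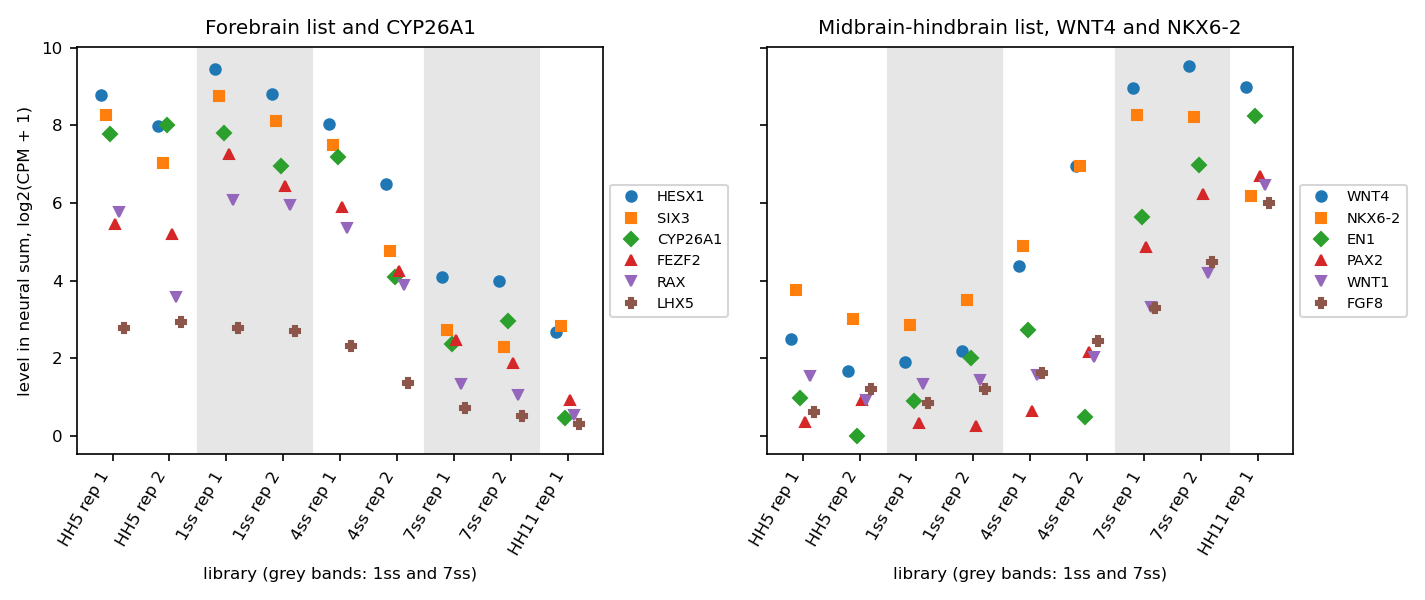
Level in the neural sum of each of the 9 libraries, as log2(CPM + 1), of 6 genes that fell (left) and 6 that rose (right); grey bands mark the 1ss and 7ss libraries that were tested, and the other libraries were not. SIX3 and HESX1 are low in both 7ss libraries and in HH11, and 4ss replicate 2 lies between 1ss and 7ss for SIX3 (26.0 CPM) while EN1 (0.391 CPM) is not raised in it.

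Ventral genes were led by NKX6-2, a homeobox repressor of the ventral neural tube. It was at 6.17 and 10.2 CPM at 1ss and at 308 and 297 CPM at 7ss (5.30 ± 0.23, adjusted p = 3.8e-07). Of 17 tested genes of the ventral and Hedgehog list, 9 rose and 3 fell (median 0.85), against 19.0 and 19.7% of all genes. NKX6-1, its relative, had 0 UMIs in both 1ss sums and 21 and 32 UMIs at 7ss, at least 7.39-fold higher with 3 counts over the 1ss libraries as the floor. SHH, the ligand of the floor plate, went from 3.48 and 5.07 CPM to 11.96 and 14.6 CPM (1.72 ± 0.24, adjusted p = 0.00050). SHH was not called when barcodes with 1 of 12 further markers of other cell types were left out (0.93, adjusted p = 0.17). Nor was SHH called when all barcodes were thinned to 2000 UMIs and the rule was applied anew, which changes the barcodes taken (1.26, adjusted p = 0.066). PTCH1, its receptor and a target of the pathway, went from 2.82 and 5.26 CPM to 9.20 and 23.5 CPM (2.10 ± 0.42, adjusted p = 0.0030).

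Other ventral genes went both ways. OLIG2, a factor of motor neuron progenitors, went from 8.21 and 9.57 CPM to 36.2 and 16.1 CPM (1.64 ± 0.34), and GLI3, the main repressor among Hedgehog effectors, from 28.7 and 28.7 CPM to 57.2 and 79.0 CPM (1.31 ± 0.16). Among those that fell, GLI2, the main activator, went from 47.7 and 46.0 CPM to 16.9 and 22.0 CPM (-1.21 ± 0.15), and FOXA1, a forkhead factor of endoderm and floor plate, from 41.2 and 55.7 CPM to 16.04 and 13.5 CPM (-1.65 ± 0.20).

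Dorsal genes and genes of the neural plate border were split, with 7 of 14 higher and 3 lower (median 0.27). Of all genes, 19.0% were higher and 19.7% lower, so the lower share was near that of all genes. MSX1, a BMP-induced homeobox factor of the dorsal tube and border, was at 31.3 and 55.0 CPM at 1ss and at 330 and 373 CPM at 7ss (3.09 ± 0.24, adjusted p = 1.9e-05). PAX7 went from 1.84 and 2.53 CPM to 5.30 and 10.3 CPM (1.91 ± 0.35) and its relative PAX3 from 3 and 1 UMIs to 33 and 107 UMIs, or 1.18 and 3.21 CPM. Both are border and dorsal tube factors, and both remained low in CPM. WNT3A, a ligand of the roof plate, had 1 and 0 UMIs at 1ss and 76 and 198 UMIs at 7ss. In the opposite direction, ZIC1, a zinc finger factor of the neural plate border and dorsal tube, fell from 68.0 and 48.9 CPM to 6.23 and 3.81 CPM (-3.48 ± 0.25, adjusted p = 1.2e-05), and RSPO3, a secreted enhancer of Wnt signalling, from 29.7 and 31.0 CPM to 1.83 and 2.19 CPM (-3.85 ± 0.20, adjusted p = 1.2e-06).

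Wnt ligands and response genes rose more often than they fell, with 14 of 30 higher and 8 lower (median 0.76). The shares over all genes were 19.0% higher and 19.7% lower. WNT4, a ligand made along the neural tube, had 42 and 38 UMIs at 1ss and 13891 and 24861 UMIs at 7ss. Its level went from 2.76 and 3.57 CPM to 497 and 746 CPM, a mean ratio of 197, with a log2 change of 7.70 ± 0.26 (adjusted p = 1.3e-07). Several genes that Wnt signalling is known to induce also rose. SP5, a zinc finger target, went from 19.96 and 29.9 CPM to 125 and 126 CPM (2.40 ± 0.20), and the feedback inhibitors NKD1 and AXIN2 rose by 2.65 ± 0.25 and 1.67 ± 0.23. APCDD1, another membrane-bound inhibitor, went from 1.58 and 1.78 CPM to 18.1 and 23.8 CPM (3.71 ± 0.24, adjusted p = 5.2e-06), and RSPO2, a secreted enhancer, from 3.09 and 3.10 CPM to 36.0 and 25.9 CPM (3.39 ± 0.24, adjusted p = 1.1e-05).

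The receptor FZD10 rose by 4.28 ± 0.39 from under 0.33 CPM, and the ligand WNT5B by 2.25 ± 0.27. Secreted antagonists and a transcription factor of the pathway were among those that fell. SFRP1 went from 137 and 122 CPM to 31.8 and 36.6 CPM (-1.86 ± 0.13), SFRP2 from 567 and 435 CPM to 275 and 198 CPM (-1.01 ± 0.19), and TCF7L2 from 138 and 160 CPM to 59.1 and 60.7 CPM (-1.25 ± 0.14).

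In the Notch pathway 9 of 14 genes rose, 1 fell and 4 were not called (median 0.76), against 19.0% higher and 19.7% lower among all genes. HES5, the Notch target that represses neuron formation, was at 80.9 and 171 CPM at 1ss and at 369 and 363 CPM at 7ss (1.60 ± 0.28, adjusted p = 0.0016). The ligand JAG1 had 2 and 3 UMIs at 1ss and was at 5.30 and 5.49 CPM at 7ss (4.82 ± 0.43, adjusted p = 4.3e-05). The ligand DLL1 went from 2.17 and 1.31 CPM to 7.73 and 7.59 CPM (2.17 ± 0.28). This call was lost when all barcodes were thinned to 2000 UMIs and the rule was applied anew (0.68, adjusted p = 0.28). The receptor NOTCH1 was at 42.6 and 57.5 CPM and at 59.6 and 66.2 CPM and was not called (0.39 ± 0.17, adjusted p = 0.085). NUMB, an inhibitor of Notch, fell by 0.54 ± 0.17 with all 4 libraries, but it missed the threshold if 1ss replicate 1 was left out (adjusted p = 0.071), as it did for 1ss replicate 2 (0.090) and 7ss replicate 2 (0.081).

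Genes of neural progenitors rose more often than they fell, with 7 of 16 higher and 2 lower (median 0.13). Of all genes, 19.0% were higher and 19.7% lower. VIM, the intermediate filament of neuroepithelium, went from 257 and 233 CPM to 595 and 554 CPM (1.30 ± 0.14), FABP7, a fatty acid carrier of radial progenitors, from 174 and 165 CPM to 340 and 253 CPM (0.88 ± 0.17), and NCAM1, a neural adhesion molecule, rose by 1.18 ± 0.15. SOX2, the factor that defines neural progenitors, was lower at 7ss. It was at 50.8 and 37.7 CPM at 1ss and at 18.1 and 20.3 CPM at 7ss (-1.14 ± 0.16, adjusted p = 0.00052), and FRZB, a secreted Wnt antagonist, fell from 853 and 774 CPM to 247 and 206 CPM (-1.77 ± 0.16). Of 10 tested genes of neuronal differentiation, 2 rose and 3 fell (median -0.46), close to the 19.0 and 19.7% of all genes for a list of this size. STMN2, a microtubule regulator of neurons, fell from 7.55 and 19.2 CPM to 3.40 and 3.27 CPM (-1.93 ± 0.38) and EBF2, a factor of early neurons, rose from 0.657 CPM in both libraries to 2.11 and 2.91 CPM (1.99 ± 0.38).

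Of 19 tested pluripotency and epiblast genes 10 fell, 6 of them past 2-fold, 2 rose and 7 were not called (median -0.63), against 19.7% lower and 19.0% higher among all genes. The study followed NANOG, POU5F3 and KLF4 as pluripotency genes of the ectoderm beside TFAP2A and SOX2, and they did not move together in these cells. It scored their co-expression in single cells of the whole ectoderm and their levels in bulk RNA of the crest region. In bulk RNA it saw a slight decrease of the pluripotency transcripts over neurulation, and it detected Nanog protein in the crest domain at the end. From single-cell RNA sequencing it also reported that NANOG, POU5F3 and KLF4 stayed expressed in ectodermal cells. Their RNA was mostly unspliced there, which it read as active transcription. Part of the cells with a high neural score there also had a high score for its pan-ectodermal signature. At the end of neurulation it placed the co-expressing cells in the dorsal neural tube. Barcodes with a UMI of FOXD3 or TFAP2B were left out here, so these sums do not cover the same cells. NANOG went from 22.5 and 15.6 CPM to 4.51 and 3.09 CPM (-2.26 ± 0.25, adjusted p = 0.00013). POU5F3, the chick relative of OCT4, was at 59.1 and 62.9 CPM at 1ss and at 50.1 and 79.9 CPM at 7ss, so the 7ss libraries lay on either side of both 1ss libraries (0.15 ± 0.18, adjusted p = 0.55). KLF4 was near the limit of detection, at 1.58 and 2.63 CPM and at 2.04 and 1.65 CPM (-0.10 ± 0.36, adjusted p = 0.86), and TFAP2A, a non-neural ectoderm and crest factor, was at 12.3 and 18.0 CPM and at 14.3 and 12.8 CPM (-0.09 ± 0.22, adjusted p = 0.78). A missed threshold does not show that these levels were equal.

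Others of the epiblast list fell at higher levels. SALL1, a zinc finger factor, went from 212 and 181 CPM to 40.3 and 48.5 CPM (-2.08 ± 0.14), its relative SALL4, a pluripotency factor, from 165 and 183 CPM to 72.9 and 90.8 CPM (-1.03 ± 0.14), and EPCAM, an adhesion molecule of epithelia, from 911 and 715 CPM to 191 and 150 CPM (-2.18 ± 0.18). LIN28A, an RNA-binding protein of early embryonic cells, fell by 0.63 ± 0.14 and the DNA methyltransferase DNMT3A by 0.83 ± 0.13. The epithelial list held 7 of 17 lower and 1 higher, against 19.7 and 19.0% of all genes. CDH11, a cadherin, fell from 119 and 127 CPM to 17.2 and 15.6 CPM (-2.84 ± 0.15).

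**Figure D3:**
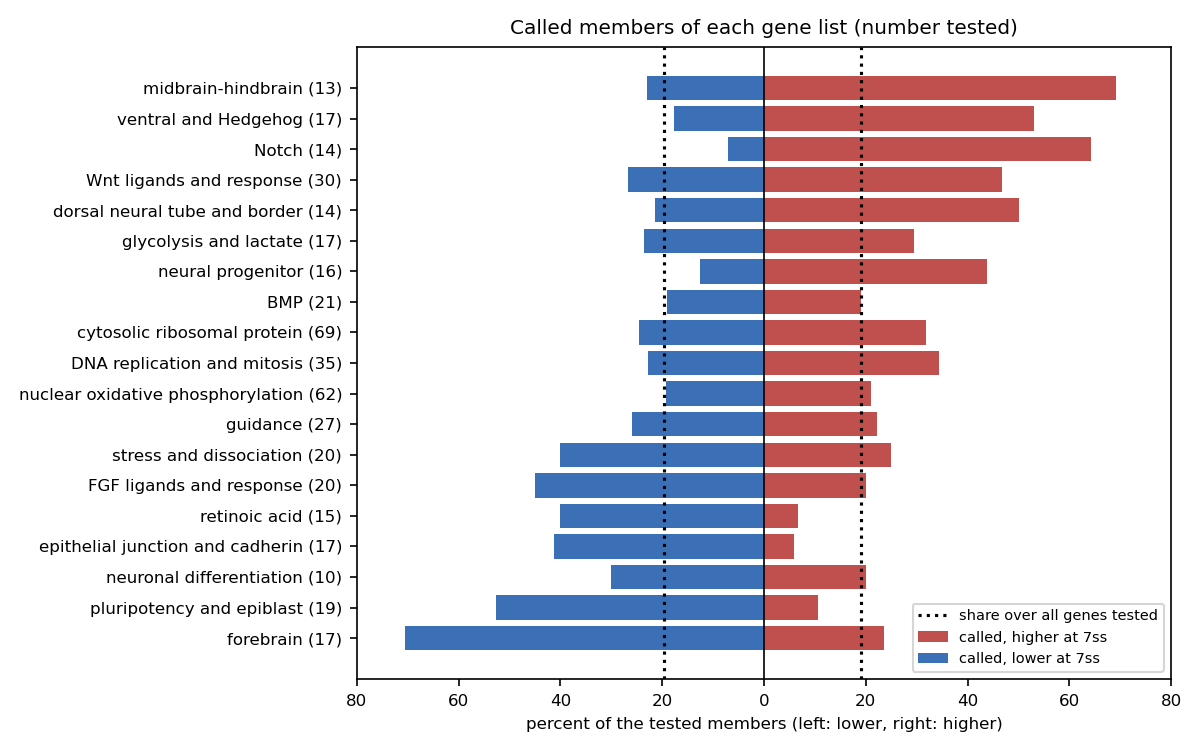
Percent of the tested members of each gene list called higher (right) or lower (left) at 7ss, with the number tested after each name and lists ordered by median log2 change; dotted lines mark the shares over all genes tested, 19.0% higher and 19.7% lower. The midbrain-hindbrain and Notch lists have the longest bars to the right (9 of 13 and 9 of 14) and the forebrain list the longest to the left (12 of 17); the HOX list, with 4 genes tested, is not drawn.

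Retinoic acid genes fell more often than they rose, with 6 of 15 lower and 1 higher (median -0.37). The shares over all genes were 19.7% lower and 19.0% higher. CYP26A1, the enzyme that breaks retinoic acid down, went from 224 and 122 CPM to 4.19 and 6.81 CPM (-4.90 ± 0.29, adjusted p = 3.4e-06). The receptors RARB and RARG fell by 1.62 ± 0.27 and 1.42 ± 0.17. NR2F2, an orphan nuclear receptor, was the member that rose, from 4.53 and 4.60 CPM to 29.6 and 34.3 CPM (2.87 ± 0.18, adjusted p = 4.7e-06).

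FGF genes fell in 9 of 20 cases and rose in 4 (median -0.28), against 19.7% lower and 19.0% higher among all genes. The share that rose was near that of all genes. DUSP6, a phosphatase that FGF signalling induces, went from 47.7 and 37.2 CPM to 9.49 and 8.88 CPM (-2.14 ± 0.17), while its relative DUSP4 went from 20.9 and 20.8 CPM to 36.5 and 38.6 CPM (0.91 ± 0.14). FGF18 fell by 1.77 ± 0.23, and FGF8, given above, rose. Among 21 BMP genes, 4 rose, 4 fell and 13 were not called, a share close to that of all genes. The antagonists went in opposite directions. FST, which binds activin, fell from 138 and 116 CPM to 9.63 and 8.40 CPM (-3.75 ± 0.16, adjusted p = 3.8e-07) and CHRD, which binds BMP, from 79.6 and 131 CPM to 18.5 and 28.6 CPM (-2.10 ± 0.25), whereas NOG, another BMP antagonist, rose from 0.985 and 2.44 CPM to 5.73 and 5.43 CPM (1.83 ± 0.38). ID2, a BMP target, fell from 966 and 796 CPM to 302 and 313 CPM (-1.45 ± 0.14).

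Several of the most changed genes belong to none of these pathways. GRP, a peptide of the bombesin family, had 894 and 489 UMIs at 1ss (58.7 and 45.9 CPM) and 7 and 1 UMIs at 7ss, a log2 change of -8.51 ± 0.38 (adjusted p = 3.8e-07). EFNB2, a ligand of Eph receptors, went from 64.1 and 49.6 CPM to 3.26 and 2.25 CPM (-4.30 ± 0.22), and the receptor EPHA1 fell by 2.58 ± 0.34. A gene with the symbol TGM2 (ENSGALG00000006775), a transglutaminase, fell by 4.36 ± 0.22 and BEGAIN, a protein of synapses, by 4.15 ± 0.21. Among guidance genes as a whole 6 of 27 rose and 7 fell, shares near the 19.0 and 19.7% of all genes, with ROBO1, a receptor of Slit, higher by 1.41 ± 0.21 and the semaphorin SEMA3D by 2.24 ± 0.42.

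CDKN1A, the cell cycle inhibitor p21, went from 0.788 and 1.60 CPM to 41.8 and 37.6 CPM (5.19 ± 0.28, adjusted p = 1.4e-06). It rose as well in barcodes with TWIST1 and no neural marker, from 1.21 and 2.09 CPM to 38.5 and 39.2 CPM, and with the library split described below as a term its change was 0.88 (adjusted p = 1.0). FAM181A rose by 5.00 ± 0.31 from 0.460 and 1.13 CPM, CRYBB2, a beta crystallin, by 3.99 ± 0.26 from 1.64 and 1.13 CPM, and BORCS6, a subunit of a lysosome-positioning complex, by 3.17 ± 0.34 from 9.59 and 8.26 CPM to 44.6 and 111 CPM. The rise of BORCS6 was larger in TWIST1 barcodes, from 2.18 and 4.87 CPM to 38.7 and 95.8 CPM, and with the library split as a term its change was 0.29 (adjusted p = 1.0). Of 35 genes of DNA replication and mitosis, 12 rose and 8 fell (median 0.08), against 19.0 and 19.7% of all genes. The share that fell was near that of all genes. PCNA, the clamp of DNA polymerase, rose from 504.4 and 433 CPM to 1291 and 1129 CPM (1.44 ± 0.15) and CCND1, a cyclin of the start of the cycle, by 0.81 ± 0.13, whereas the mitotic kinases CDK1 and PLK1 fell by 0.75 ± 0.14 and 0.89 ± 0.15.

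In a sum, fewer cells with a transcript and less RNA in each cell cannot be told apart. To compare detection at a common depth, barcodes already chosen were thinned to 2000 UMIs and those with a UMI of a gene were counted. This left out 18.6 and 23.0% of neural barcodes at 1ss and 27.6 and 26.9% at 7ss. At this depth a low level in every cell also leaves most barcodes without a UMI, so the shares do not separate these cases either. SIX3 was present in 52.7 and 37.4% of neural barcodes at 1ss and in 0.960 and 0.850% at 7ss. The share in TWIST1 barcodes, which should lack it, was 7.02 and 5.19% at 1ss and 0.358 and 0.307% at 7ss. HESX1 went from 64.2 and 48.7% to 3.14 and 2.92%, beside 30.0 and 24.1% and 1.31 and 1.38% of TWIST1 barcodes. Both genes were thus detected at this depth in a large part of neural barcodes at 1ss and in a few percent or less at 7ss.

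At 7ss WNT4 was present in 50.4 and 60.6% of neural barcodes (2.98 and 5.21% of TWIST1 barcodes) and at 1ss in 0.371 and 0.674%. NKX6-2 was present in 36.8 and 36.4% at 7ss, beside 1.43 and 2.45% of TWIST1 barcodes, and in 0.928 and 2.32% at 1ss. MSX1 was present in 36.4 and 38.3% at 7ss, against 4.64 and 7.26% at 1ss. PAX2 and EN1 were present in a smaller share at this depth, with 5.03 and 9.61% for PAX2 and 8.03 and 18.2% for EN1 at 7ss, beside at most 0.307 and 2.15% of TWIST1 barcodes. SOX2 went from 10.6 and 7.11% to 2.69 and 3.53%, and NANOG from 4.76 and 3.44% to 0.992 and 0.504%, at 7ss close to its 0.597 and 0.153% of TWIST1 barcodes. POU5F3 was present in 10.1 and 11.5% at 1ss and in 10.2 and 14.1% at 7ss, beside 5.49 to 8.89% of TWIST1 barcodes.

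**Figure D4:**
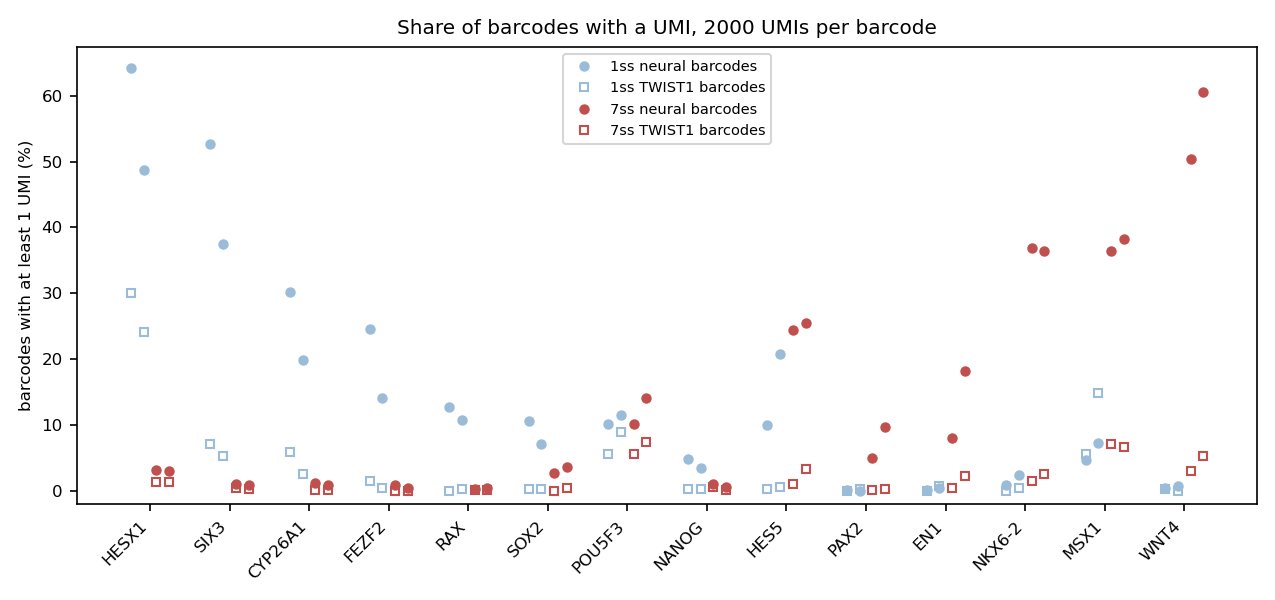
Percent of barcodes with at least 1 UMI of a gene after thinning to 2000 UMIs; each point is a library, filled circles are neural barcodes and open squares TWIST1 barcodes, with 1ss in light blue and 7ss in red. HESX1 and SIX3 are the highest filled circles at 1ss (64.2 and 52.7%) and WNT4 at 7ss (60.6%), and POU5F3 overlaps between stages.

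To see whether the genes that fell and those that rose shared cells, barcodes were sorted by any UMI of SIX3, HESX1, RAX or FEZF2 and by any UMI of PAX2, EN1, WNT4 or NKX6-2, sets chosen after their values were seen and therefore described without a test. At 1ss 81.5 and 67.4% of neural barcodes held the first set and 1.42 and 3.37% the second. At 7ss 4.99 and 4.30% held the first and 69.8 and 79.3% the second. Barcodes with both made up 0.989 and 1.72% at 1ss and 2.34 and 2.50% at 7ss, and 27.5 and 18.9% of 7ss barcodes held neither at this depth. At 1ss 16 of 23 and 23 of 45 barcodes with the second set held both. At 7ss 73 of 156 and 94 of 162 with the first set held both, and without thinning 351 of 487 and 428 of 502. Without thinning the second set was held by 78.1 and 85.9% of all 7ss neural barcodes, so these counts show no excess of shared barcodes. The first set was held by 32.9 and 26.9% of TWIST1 barcodes at 1ss and 1.79 and 1.84% at 7ss. The second was held by 0.242 and 1.30% and by 4.65 and 8.74%.

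TWIST1 barcodes of the same libraries show which changes differ between neural cells and head mesoderm. There were 510 and 704 of them at 1ss and 996 and 831 at 7ss. Of 10991 genes tested for a difference between the changes, 2793 (25.4%) were called, 1564 with a higher and 1229 with a lower change in neural barcodes. TWIST1 barcodes were deeper at 7ss (median 10591.5 and 7804 UMIs). With all barcodes thinned to 2000 UMIs and both classes chosen anew, 881 of 7805 genes were called. PAX2 was at 1.21, 1.62, 1.20 and 1.63 CPM in the TWIST1 sums, and its change was 7.77 ± 0.85 higher in neural barcodes on the log2 scale (adjusted p = 7.6e-09). For RSPO2 and MSX1 the classes moved in opposite directions. RSPO2 was at 33.7 and 24.4 CPM at 1ss and 6.21 and 6.40 CPM at 7ss in TWIST1 barcodes (difference 5.68 ± 0.24, adjusted p = 2.0e-19). MSX1 was at 43.6 and 215 CPM and then 32.0 and 35.7 CPM there (difference 4.94 ± 0.20, adjusted p = 6.2e-20). At 1ss it had 43.6 CPM beside 31.3 CPM in neural barcodes of replicate 1, but 215 beside 55.0 CPM in replicate 2. The 1ss libraries thus lay far apart. The fit partly shares spread across genes, so this SE and p-value do not measure the spread of MSX1 alone.

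Some region genes changed in both classes. WNT4 was at 0.727 and 0.696 CPM and then at 14.9 and 33.1 CPM in TWIST1 barcodes (difference 2.72 ± 0.84, adjusted p = 0.015). NKX6-2 was at 0 and 0.464 CPM and then at 8.41 and 12.3 CPM, and its change was not called as different (-0.04 ± 0.51, adjusted p = 0.97). HESX1 was at 223 and 176 CPM and then at 8.01 and 10.8 CPM in TWIST1 barcodes (difference -0.66 ± 0.17, adjusted p = 0.0025). Empty droplets, raw barcodes with at most 100 UMIs, moved with them, with WNT4 at 2.83 CPM in 1ss replicate 1 and 254 CPM in 7ss replicate 1, NKX6-2 at 2.83 and 167 CPM and HESX1 at 402 and 9.75 CPM. With 10% of each neural sum subtracted in the proportions of the empty droplets, 4213 genes were called.

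**Figure D5:**
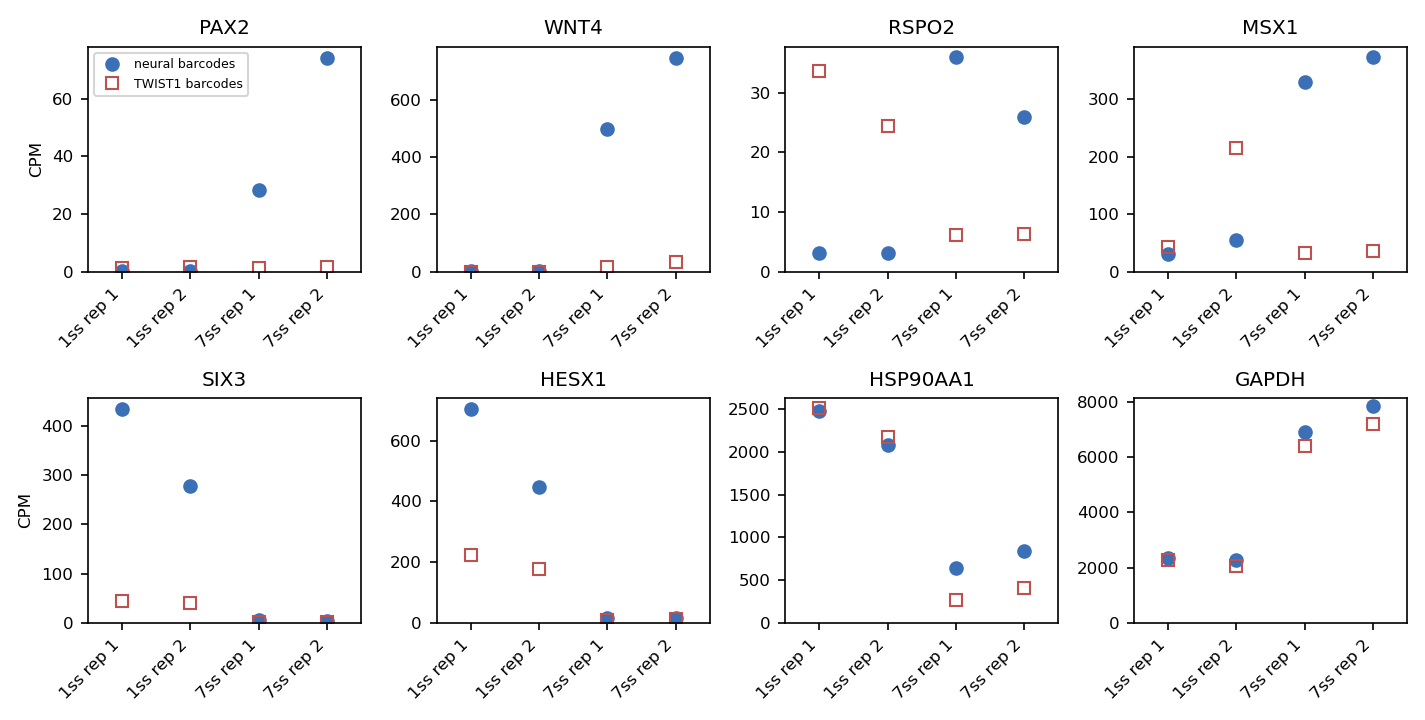
CPM of 8 genes in the neural sum (filled circles) and the TWIST1 sum (open squares) of each 1ss and 7ss library. PAX2 rises in neural barcodes while it stays between 1.20 and 1.63 CPM in TWIST1 barcodes, and RSPO2 and MSX1 move in opposite directions in the classes. MSX1 in TWIST1 barcodes lies far apart at 1ss (43.6 and 215 CPM) and is at 32.0 and 35.7 CPM at 7ss. GAPDH rises in both classes, from 2345 and 2279 to 6908.5 and 7858 CPM in neural barcodes.

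The most abundant genes that changed were of another kind. GAPDH, an enzyme of glycolysis, was at 2345 and 2279 CPM at 1ss and 6908.5 and 7858 CPM at 7ss (1.74 ± 0.17, adjusted p = 6.1e-05). The ribosomal protein gene RPS2 (1.67 ± 0.18) and the mitochondrial gene ATP6 (1.21 ± 0.18) rose, while RPLP1 (-1.03 ± 0.21), RPL34 (-1.09 ± 0.21) and RPL38 (-1.17 ± 0.16), also ribosomal proteins, and the heat-shock protein HSP90AA1 (-1.56 ± 0.17) fell. The call for RPL34 was lost with the HH5 sums added (adjusted p = 0.052). Of 69 cytosolic ribosomal protein genes 22 rose and 17 fell, against 19.0 and 19.7% of all genes. All 12 that passed 2-fold, 9 higher and 3 lower, were also called in the same direction in TWIST1 barcodes, with differences of at most 0.20 on the log2 scale, and all 12 went the same way from 4ss replicate 1 to 4ss replicate 2.

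The other libraries were not tested, HH11 being 1 library, and they showed a split within 4ss. On a scale where 0 is the 1ss mean and 1 the 7ss mean, the median position over the 1880 genes called past 2-fold was 0.18 and -0.01 in the HH5 libraries, 0.17 in 4ss replicate 1, 0.87 in 4ss replicate 2 and 0.81 at HH11. No library of HH5 or HH11 entered the comparison, but the labels do not say whether any library shared a batch with it. The HH11 level was above the HH5 mean for 82.8% of the genes called higher (59.6% of all genes). It was below the HH5 mean for 69.9% of the genes called lower (40.4% of all genes). Within the single stage 4ss, replicate 2 was above replicate 1 for 87.9% of the genes called higher (42.7% of all genes) and below it for 95.5% of the genes called lower (57.3% of all genes).

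That split, 4ss replicate 2 and both 7ss libraries against the rest, was added as a term to the fit on 8 sums. Its size comes from the difference between the 4ss libraries alone. A gene lower in 4ss replicate 2 is thus given a larger rise at 7ss. With the term 8 genes were called, all higher at 7ss, and 577 had an unadjusted p under 0.05. The 8 were PAX6 (4.16), NR2F2 (4.76), SP8 (5.62), WNT4 (4.93), APCDD1 (4.84), EN1 (9.32), PTN, a heparin-binding growth factor (2.76), and OPTC, a matrix proteoglycan (3.65). In the main fit on 4 sums SP8 changed by 3.11, APCDD1 by 3.71, EN1 by 5.65 and WNT4 by 7.70. With the split as a term the changes of GAPDH, RPS2 and HSP90AA1 turned sign. SIX3 was at 181 CPM in 4ss replicate 1 and at 26.0 CPM in replicate 2, GAPDH at 2200.5 and 7108 CPM and HSP90AA1 at 2190 and 559 CPM, whereas EN1 was at 5.61 and 0.391 CPM. Stage and whatever separates the 4ss libraries cannot be told apart for genes that follow the split. At HH11 EN1 was at 300 CPM, PAX2 at 103 CPM, EN2 at 155 CPM and WNT4 at 508 CPM, while SIX3 was at 6.08 CPM, HESX1 at 5.33 CPM and RAX at 0.451 CPM.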

How the data were processed

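Droplet-based 3′ single-cell libraries of 9 chick samples were used. The authors deposited UMI counts per gene and barcode, filtered and raw, made with Cell Ranger and the GRCg6a genome (the submitters' processing notes name Cell Ranger 6.1.1 and Seurat 4, whereas the file headers name other Cell Ranger releases for the HH11 library and for the raw tables behind the empty droplets, whose effect was not tested) with an annotation with extended 3′ ends. Of 16880 genes, 4441 have no symbol, and SOX3 was not analysed here.

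UMI counts of neural barcodes were summed per library and tested on 4 sums with edgeR 4.0.16 in R 4.3.3 (TMM, filterByExpr, quasi-likelihood F test, 2-sided, Benjamini-Hochberg adjustment over all genes tested, threshold 0.05). CPM are UMIs per 1000000 UMIs of the sum, and SE is the log2 change over the root of F. The difference between neural and TWIST1 barcodes was tested on 8 sums with library as a block. The members, the gene lists and the marker lists were chosen with earlier results of these data known, so counts over lists are descriptions. The 4ss sums were left out of the main fit because earlier results of these data had shown that the 2 libraries of 4ss differ much. The main fit was thus not chosen blind to the data, and with the HH5 and 4ss sums added 348 genes were called. Genes of the rule that passed the filter stayed in the fits and in the number tested, and their tests are not given. Named genes were the 12 largest rises and 12 largest falls among called genes with a symbol, with stages that did not overlap and a mean of at least 20 CPM in the higher stage, the 4 most abundant called genes past 2-fold each way, members of the lists, and NANOG, POU5F3, KLF4, TFAP2A and SOX2; 1 gene that the rule names is not reported here. Doublets were not called; barcodes with over 4000 genes were left out in an alternative. The test was tried on simulated counts for these 11382 genes, 200 of them changed and all with 1 common spread. There 68% of 2-fold and 94% of 4-fold changes were recovered and 0.107% of unchanged genes were called. The 2 libraries per stage do not allow an exact permutation test of a single value to reach the threshold. Alternatives were DESeq2 1.42.0, RLE factors, no filter, other samples in the fit, the replicate block, each library left out, and other limits on barcodes. For the alternative thinned to 2000 UMIs, all barcodes were thinned first and the rule was then applied to the thinned counts. It took 1125 and 949 neural barcodes at 1ss and 2158 and 2956 at 7ss. These are not the same set as the thinned barcodes of the detection shares. Tables and figures were made with Python 3.11.15 and matplotlib 3.10.9.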

Additional observations from a re-analysis of the deposited data

Results flagged for a closer look

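The change from 1ss to 7ss was compared between neural and TWIST1 barcodes of the same libraries by edgeR, and 2793 of 10991 genes (25.4%) differed between the classes. Among the named genes, the change was higher in neural barcodes, on the log2 scale, for PAX2 (7.77), RSPO2 (5.68), MSX1 (4.94), EN1 (4.40), WNT4 (2.72), APCDD1 (2.58), KLF4 (1.61), HSP90AA1 (1.34), FST (0.76), RPLP1 (0.18) and GAPDH (0.14). It was lower in neural barcodes for RSPO3 (-4.39), RAX (-3.52), NANOG (-3.03), EFNB2 (-2.69), TFAP2A (-2.24), SIX3 (-1.26), BORCS6 (-1.01) and HESX1 (-0.66). HSP90AA1 fell in both classes, in TWIST1 barcodes from 2516 and 2174 CPM to 261 and 401 CPM. KLF4 was under 3.1 CPM in every 1ss and 7ss sum. RAX, NANOG, TFAP2A, RSPO3 and PAX2 were under 3 CPM in every TWIST1 sum of these stages, so their differences rest on few UMIs there. TFAP2A was not called in neural barcodes.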

How the results depend on the processing

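The count of genes called at 7ss against 1ss (4406) was 3516 with DESeq2, 4405 with RLE factors, 5060 without the filter, 3031 with barcodes thinned to 2000 UMIs, 4213 with free RNA subtracted and 4158 to 4407 with other limits on barcodes. It was 2721 to 3867 with each library left out, lowest without 1ss replicate 1, and 2552 with HH5 added, a fit chosen after seeing the data. With 8 sums of 4 stages it was 348, and with the library split as a term 8, and the cause was not tested. The main fit on 4 sums was also chosen with earlier results on the 4ss libraries known. The replicate numbers did not pair the libraries (correlation of replicate differences 0.064), and the fit with the replicate block called 5298. The count that differed between neural and TWIST1 barcodes (2793) was 881 when thinned and 1949 to 2115 with each library left out. The difference in the share of neural barcodes was 6.58 percentage points with further barred genes and -0.66 to 5.10 with each library left out.

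With the library split as a term, the log2 change turned sign for GAPDH (-0.084), RPS2 (-0.011), HSP90AA1 (0.28), POU5F3 (-0.74), GBX2 (-0.031), OTX1 (0.041), FOXA1 (1.38), NUMB (0.074), FGF18 (0.12), ID2 (0.29) and JUN (0.54). Among genes that were not called, KLF4 turned to 0.049 with SOX21 or SOX1 barcodes only and 0.079 with 2 marker UMIs, and NOTCH1 to -0.074 when thinned. With each library left out, POU5F3 ranged from -0.17 to 0.41, KLF4 from -0.50 to 0.30 and TFAP2A from -0.40 to 0.22. The difference for NKX6-2 was 0.041 with SOX21 or SOX1 barcodes only, 0.37 with at least 1000 genes, 0.024 with 2 marker UMIs, 0.031 with at most 4000 genes, and ranged from -4.64 to 0.59 with each library left out.

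Of 98 called genes given with values, 97 kept the call without each library in turn, NUMB being the exception, and 94 kept it in every alternative but the fits on 8 sums, the exceptions being RPL34, SHH, DLL1 and NUMB. Many of these genes were named for large changes, so a kept call is a description. Of these 98 called genes, 41 lost the call with 8 sums of 4 stages. With the library split as a term 81 lost it with the sign kept, and 8 kept it. Of the 11 genes that turned sign, POU5F3 and GBX2 had no call in the main fit, and the others lost theirs. In the simulation 18% of 1.5-fold changes were called, but only 200 genes were changed and all genes had 1 common spread. Far more genes were called in the data, some with smaller changes (RPL37, -0.53 ± 0.16). The share of changes missed here was thus not measured.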

Other observations

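Of 17 glycolysis genes 5 rose and 4 fell, shares not far from the 19.0 and 19.7% of all genes. LDHB, a lactate dehydrogenase subunit, went from 2004 and 1773 CPM to 4447 and 4492 CPM (1.31 ± 0.16), and GPI, the second enzyme of the pathway, rose by 0.93 ± 0.13. Among 62 nuclear genes of oxidative phosphorylation 13 rose and 12 fell (median -0.01), shares close to those of all genes. Of 20 genes of stress and dissociation 5 rose and 8 fell, against 19.0 and 19.7% of all genes. JUN, an immediate early factor, fell from 175 and 204 CPM to 44.4 and 41.9 CPM (-2.07 ± 0.15) and HSPA5, a chaperone of the endoplasmic reticulum, rose from 150 and 154 CPM to 272 and 301 CPM (0.98 ± 0.13). CLDN1, a tight junction protein, fell by 0.78 ± 0.18.

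Of the 15 genes of the HOX and cofactor list in the files, 4 were tested, all cofactors, and 1 rose and 2 fell.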
